A study of Oryza sativa Japonica Group with 20 samples.

Results

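A set of 58 rice genes had higher leaf intensity after 2 h of drying in air and a mean leaf level near the start at 12 h. Its root level at 12 h lay close to that at 0 h. The leaf mean at 12 h joins 2 unlike arrays: replicate 1 lay above both 0 h arrays in 43 genes and replicate 2 below both in 49. The 58 genes were chosen from 27609 genes on the array by their measured values. Intensities under 200 were raised to 200, taken to log2 and averaged over the replicates of a group, and a change is the mean of a time minus that of 0 h in the same tissue. A gene was kept when its leaf change was over 1.5 after 2 h, under 0.8 after 0.5 h and under 0.3 after 12 h, when its root change after 12 h lay within 1 of zero, and when both leaf 2 h arrays read over 1000. Of 26789 genes with AK or Os identifiers, 17788 passed the minimum after 2 h, and 1039 of these had the rise after 2 h. Of those, 141 had a mean change under 0.3 after 12 h, 76 of these had a change under 0.8 after 0.5 h, and 58 passed the root bound. Up to 100 genes were to be kept, so none was dropped by rank.

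The plants were seedlings of the rice cultivar Nakdong, 14 days old. They were taken out of the soil and stood in water for 1 day. They were then dried in air at 32 °C and 50% humidity under continuous light, with the roots covered. Leaves and roots were collected at 0, 0.5, 2, 6 and 12 h, with 2 biological replicates at each time and 1 Cy3 array for each sample, 20 arrays in all. All 10 groups shared the cultivar and the day in water. The 0 h plants were the only ones not dried, so time in the chamber and drying cannot be told apart. The samples are bulk tissue, so fewer cells of a type and less RNA in each cell cannot be told apart either.

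When water is lost, plant cells raise the hormone abscisic acid and switch on genes through abscisic acid dependent and independent routes. Among such genes, those for regulators and signalling proteins are known to rise early and often briefly, while those for protective proteins and for the making of compatible solutes tend to stay high as drying goes on. The identity of the 58 genes within such a scheme is not given here: 0 of the 58 identifiers, and 0 of all 27609, matched the table of gene names used. Of the 58, 32 carry Os identifiers, which are locus names of the rice annotation with the chromosome in the digits after Os, and 26 carry AK identifiers, which are accessions of full-length cDNAs. Os identifiers made up 55.2% of the 58, against 25.9% of all AK and Os genes on the array and 28.2% of those over 1000 on both leaf 2 h arrays. The 32 loci lie on all 12 chromosomes. Chromosomes 2 and 8 hold 5 each (15.6% of the 32, where the array has 10.9% and 6.94% of its Os genes), chromosome 5 holds 4, and chromosomes 1, 4 and 12 hold 1 each. Each of the 58 was measured by 10 probes, as were 27431 of all genes.

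The control feature of random sequences set 2 of the arrays apart from the rest. Other control features were raised on these and also on root 12 h replicate 1, which the rule read, as listed further below. The control feature of random sequences read 115 to 228 on 18 arrays, but it was at 362 on replicate 1 of leaf at 0.5 h and at 340.2 on replicate 2 of root at 0.5 h, and 27 and 22 of the 58 genes lay below it on these 2 arrays, against 0 to 7 on the others. As a check of the tissue labels, rbcS, the small subunit of the enzyme that fixes carbon, read 20208 to 60069 on leaf arrays and 465 to 12891 on root arrays, with no overlap.

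On the separate leaf arrays the 58 genes did not follow 1 smooth course. Their median intensity was 1141 and 826 at 0 h (replicates 1 and 2), 439 and 2355 after 0.5 h, 2721 and 4502 after 2 h, 2874 and 2987 after 6 h, and 1471 and 625 after 12 h. The 2 arrays of 0.5 h thus lay on either side of 0 h, those of 12 h did too, and those of 6 h were nearly equal. The chosen changes had a median of 0.23 at 0.5 h (range -1.19 to 0.79), 1.86 at 2 h (1.51 to 2.60) and 0.07 at 12 h (-1.52 to 0.30) on the log2 scale. These describe the choice and were not tested. For the same reason nothing is read from the 9 of 58 genes called higher at 2 h in the limma fit used for root (8.32% of all genes were).

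**Figure D1:**
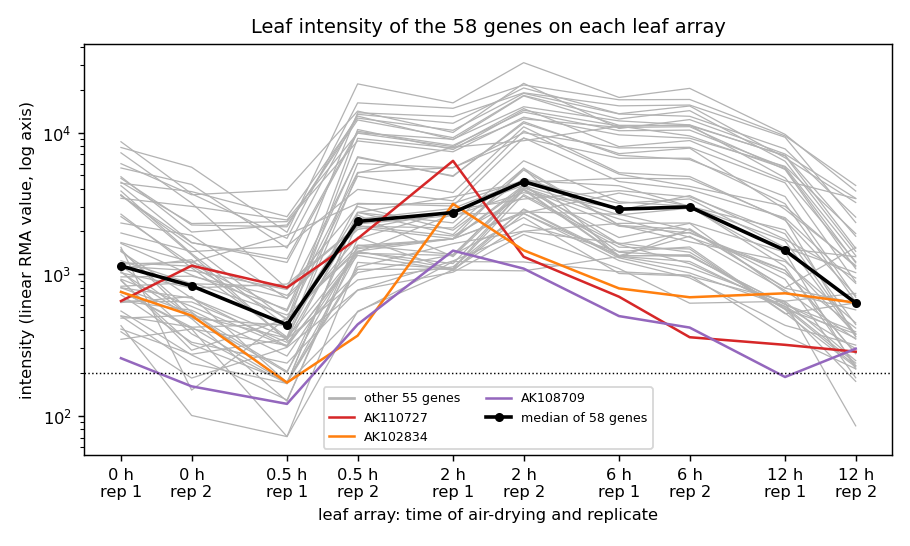
Intensity of each of the 58 genes (log axis) on the 10 leaf arrays, by time of air-drying and replicate. Lines only join the values of 1 gene, the dotted line is the floor of 200, and the black median falls to 439 on 0.5 h replicate 1 and stands at 2355 on 0.5 h replicate 2.

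Set against both 0 h arrays, the 2 replicates of a time placed the genes differently. On 0.5 h replicate 1, 1 gene lay above both 0 h arrays and 46 lay below both. On 0.5 h replicate 2, 56 lay above both, and for 52 of the 58 that array alone stood over 0.8 above the 0 h mean, the bound that the mean of both arrays had to stay under. At 12 h, replicate 1 had 43 genes above both 0 h arrays, with 41 past the bound of 0.3, whereas replicate 2 had 4 above and 49 below. At 2 h and 6 h the replicates were alike in this respect, with all 58 genes above both 0 h arrays on each 2 h array, and 56 and 54 on the 6 h arrays. The highest leaf array was 2 h replicate 2 for 48 genes, and the lowest was 0.5 h replicate 1 for 41 and 12 h replicate 2 for 15.

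The spread between replicates of these genes was large in leaf. Replicate 2 was higher than replicate 1 in 58 of 58 genes at 0.5 h, by a median of 2.63 on the log2 scale (6.18-fold), and by more than 2-fold in 57. Over all genes the median was 0.45, with 27.0% more than 2-fold higher. At 12 h replicate 1 was the higher one in 54 of 58, with a median of -1.41 for replicate 2 minus replicate 1 against -0.06 over all genes, and by more than 2-fold in 40 (69.0%, against 6.97% of all genes). At 0 h replicate 1 was more than 2-fold higher in 25 of 58 (43.1%, against 5.68% of all genes), with 0 the other way. At 2 h replicate 2 was more than 2-fold higher in 24 (41.4%, against 16.6% of all genes), with 2 the other way. At 6 h, which the rule did not read, the median was -0.06 against -0.09 over all genes, and no member differed by 2-fold. The residual SD of the 58 had a median of 1.10 in leaf and 0.40 in root on the log2 scale, against 0.43 and 0.35 over all genes, and 58 of 58 in leaf and 38 of 58 in root lay above the median of all genes. The means of the 0, 0.5, 2 and 12 h leaf arrays entered the choice of the genes, so these spreads are a description.

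**Figure D2:**
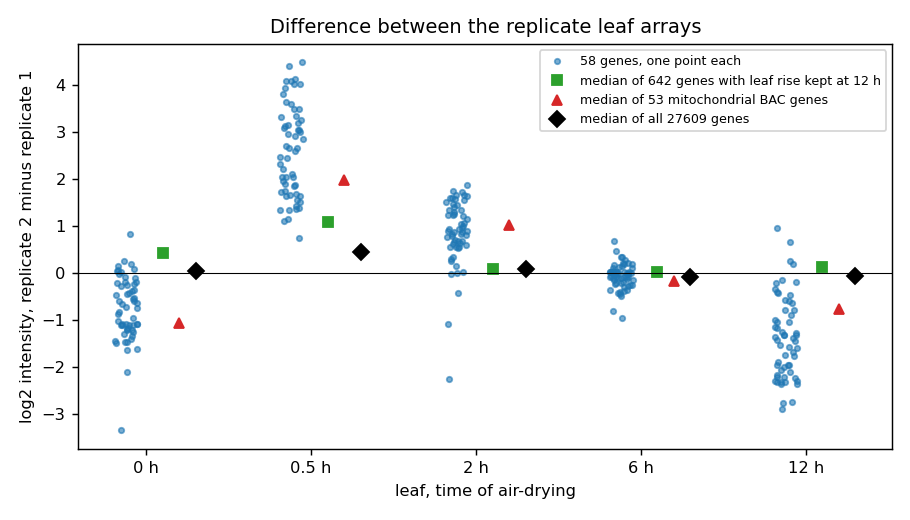
Log2 intensity of leaf replicate 2 minus replicate 1 at each time, with a point for each of the 58 genes and medians for 3 other sets. At 0.5 h all 58 points lie above zero, at 6 h they lie around it (median -0.06), and at 12 h most lie below it (median -1.41).

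The members at the edges of the rule were close to genes left out. At 2 h the smallest change kept was 1.51, and the largest change left out was 1.47. At 12 h a gene at 0.30 was kept and one at 0.31 left out, at 0.5 h the pair was 0.79 and 0.84, and in root at 12 h it was 0.97 and 1.02 in size. Membership also moved with single arrays. Without leaf 0.5 h replicate 1 the rule found 6 genes, all of them among the 58, and without leaf 0.5 h replicate 2 it found 93, with all 58 among them. Without leaf 12 h replicate 2 it found 23 genes, of which 17 were among the 58, and without leaf 12 h replicate 1 it found 117, of which 56 were. Without leaf 0 h replicate 1 or 2 it found 41 and 134, sharing 25 and 30, and without leaf 2 h replicate 1 or 2 it found 429 and 39, sharing 56 and 27. After quantile normalization of all arrays it found 19, of which 18 were among the 58.

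The gene with the largest chosen change, Os10g0159000 on chromosome 10, shows the course of most members. Its leaf intensity was 1046 and 378 at 0 h, 168 and 2724 after 0.5 h, 2300.4 and 6321 after 2 h, 3242 and 3009 after 6 h, and 1131 and 225 after 12 h. The 0.5 h values enclose those of 0 h, and the 12 h values do too, whereas both 2 h and both 6 h values lie above them. On the 10 root arrays it read 129 to 249. The gene with the next largest change, Os03g0714800 on chromosome 3, read 1646 and 985 at 0 h in leaf, 562 and 6753 after 0.5 h, 4899 and 11945 after 2 h, 6914 and 6438 after 6 h, and 3534 and 686 after 12 h. It thus has the same split at 0.5 h and 12 h, with replicate 2 the higher one at 0.5 h and replicate 1 at 12 h. The chosen change at 2 h was 2.60 for Os10g0159000 and 2.59 for Os03g0714800.

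The leaf 6 h arrays were not read by the rule, but the 0, 2 and 12 h arrays they are set against were, so the steps to and from 6 h are a description and were not tested. The change at 6 h had a median of 1.65 (range -0.79 to 2.60) and was over 1 in 50 of 58 genes (3060 of all 27609). In 54 of the 58 both 6 h arrays lay above both 0 h arrays, as in 33.2% of all genes. In the limma fit 2 of 58 members were called higher at 6 h (5.72% of all genes were). The step from 2 h to 6 h had a median of -0.19, with 45 genes lower and 13 higher at 6 h. Of the 58, 54 lay within 1 log2 unit of their 2 h level. Over all 27609 genes the median step was -0.12, with 16951 lower and 10058 higher. Only 243 of all genes rose by more than 1 and 890 fell by more than 1. From 6 h to 12 h the median step was -1.66, and in 55 of 58 genes both 12 h arrays lay below both 6 h arrays (24.5% of all genes). A high level at 2 h and a low one at 12 h had been required of every member. What these steps add is where the 6 h level lay between them, which was nearer that of 2 h for most of the set. Most genes on the array also stayed near their 2 h level at 6 h, so this is not particular to the 58.

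By kind of identifier, the leaf course differed in its details. All 32 Os genes had both 6 h arrays above both 0 h arrays, and 22 of 26 AK genes did, against 33.2% of all genes. The median change at 6 h was 1.81 in the Os genes and 1.35 in the AK genes. From 2 h to 6 h, 11 of 32 Os genes and 2 of 26 AK genes were higher at 6 h (10058 of all 27609 genes). All 4 members that fell more than 1 log2 unit in this step carry AK identifiers. They are AK110727 (-2.54), AK102834 (-1.54), AK108709 (-1.46) and AK069827 (-1.01), named here after their values were seen.

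In the 3 of these with the largest step, the 2 h replicates also had an order rare in the set but common on the array. Replicate 1 was higher than replicate 2 at 2 h in 5 of the 58 genes, and in 12454 of all 27609. AK110727, AK102834 and AK108709 were among the 5. AK110727 read 645 and 1147 at 0 h in leaf, 802 and 1779.6 after 0.5 h, 6312 and 1325 after 2 h, 692 and 358 after 6 h, and 316 and 283 after 12 h. Its rise rests mostly on 2 h replicate 1, since 2 h replicate 2 lies below the higher of the 0.5 h arrays and near the higher of the 0 h arrays. AK102834 read 748 and 509 at 0 h, 171 and 367 after 0.5 h, 3134 and 1473 after 2 h, 792 and 686 after 6 h, and 731 and 628 after 12 h. AK108709 read 254 and 161 at 0 h, 121 and 441 after 0.5 h, 1464 and 1093 after 2 h, 505 and 419 after 6 h, and 187 and 297 after 12 h. In both, the 2 h arrays stand above every other leaf array.

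Root arrays at 0.5, 2 and 6 h were not read by the rule, and the members were tested there by limma in 1 fit of all 20 arrays, with p-values adjusted over all 27609 genes. Calls required a log2 change past 1 with an adjusted p under 0.05. The root 0 h arrays were read for the bound at 12 h, and the comparisons with 0 h share them. At 0.5 h, 0 members were called higher (0.29% of all genes were) and 0 lower (1.4%), with 4 of 58 members (6.90%) and 25.8% of all genes at an unadjusted p under 0.05. At 2 h, 1 was called higher (1.67%) and 0 lower (1.79%), with 2 of 58 members (3.45%) and 15.1% of all genes at an unadjusted p under 0.05. At 6 h, 0 were called higher (2.19%) and 0 lower (6.12%), with 2 of 58 members (3.45%) and 21.1% of all genes at an unadjusted p under 0.05. The median change of the members was -0.24 after 0.5 h, 0.14 after 2 h and 0.32 after 6 h, against -0.30, -0.02 and 0.01 over all genes. These counts are not read as a result about the members, because the fit of all arrays took the spread from leaf too. Its residual SD had a median of 0.84 for the 58 against 0.42 over all genes, where root arrays alone gave 0.40 and 0.35. With only the root arrays in the fit, 2 members were called higher at 2 h and 1 at 6 h. The share of all genes called in that fit is not given here, so these counts are not read as a result either.

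**Figure D3:**
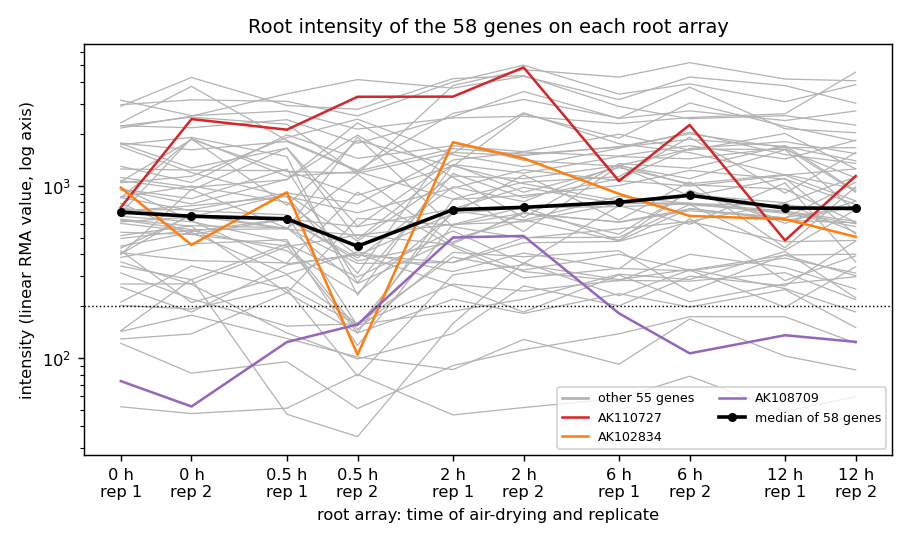
Intensity of each of the 58 genes (log axis) on the 10 root arrays, by time of air-drying and replicate. Lines only join the values of 1 gene, the dotted line is the floor of 200, and the black median stays between 445 and 880.

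The member called in root was AK108709. It read 73 and 52 at 0 h in root, 124 and 156 after 0.5 h, 501 and 511 after 2 h, 182 and 106 after 6 h, and 135 and 124 after 12 h. Both 2 h arrays lie above all other root arrays, and the 0 h values lie below the random feature, which read 161 and 146 there. Its level after 2 h was therefore at least 3.30-fold that at 0 h, the bound being the mean log2 value after 2 h less that of the feature at 0 h, with a limma adjusted p of 0.00399. Set against root at 0.5 h it was also the 1 member called higher at 2 h (4.13% of all genes were, and 0.58% were lower), at least 2.00-fold with a limma adjusted p of 0.047. Without root 2 h replicate 2 the call against 0 h was lost, and the call against 0.5 h was lost in 24 of 31 alternatives.

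The step between 2 h and 6 h was set side by side in the 2 tissues. From 2 h to 6 h in root, 0 members were called in either direction, as were 0% of all genes, with 1 of 58 members and 950 of all genes at an unadjusted p under 0.05. The log2 step was beyond -1 in 3 members, which are the 3 with the largest step in leaf, and none of them was called. It was -1.37 for AK110727 and -1.05 for AK102834 (limma adjusted p of 1 for each). AK108709 lay below the random feature on both root 6 h arrays, so its 2 h level was at least 2.75-fold that at 6 h (limma adjusted p 0.585). AK110727 read 749 and 2439 at 0 h in root, 2116 and 3286 after 0.5 h, 3292 and 4867 after 2 h, 1065 and 2256 after 6 h, and 482 and 1139 after 12 h. AK102834 read 974 and 454 at 0 h in root, 916 and 104 after 0.5 h, 1791 and 1442 after 2 h, 897 and 668 after 6 h, and 640.4 and 505 after 12 h. In each of the 3 both root 2 h arrays lay above both 0 h arrays and both 6 h arrays. Both root 2 h arrays lay above both 0 h arrays in 22 of the 58 and in 23.0% of all genes. For the root step from 2 h to 6 h, the shares of all genes beyond -1 or without overlap are not given here. The 3 were picked after their values were seen, so their root values are a description and no shared course is read from them.

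The tissues were also compared at 6 h, where the rule read neither group, but this contrast is not free of the choice of members. They had to be high in leaf at 2 h, and the median step from there to leaf at 6 h was -0.19. At times the rule read, their median of root minus leaf was already -0.72 (0 h) and -2.44 (2 h). The calls below are therefore no separate evidence on the members. With root set against leaf at 6 h, 31 of 58 members were called lower in root (8.27% of all genes were) and 0 higher (9.69%). The median difference was -2.14 on the log2 scale, against -0.05 over all genes. In 51 genes both root arrays lay below both leaf arrays (37.1% of all genes did), and in 3 both lay above (36.3% of all genes). The median intensity of the 58 at 6 h was 802 and 880 on the root arrays and 2874 and 2987 on the leaf arrays. The members had been required to read over 1000 on both leaf 2 h arrays, and among AK and Os genes that did so 7.38% were called lower in root at 6 h. Only 1039 of those 17788 genes had the leaf rise of the members, so they are an unlike set. The 642 genes with the same leaf rise at 2 h and a leaf change still over 1 at 12 h had 137 called lower (21.3%) and 17 higher (2.65%). They were not held to the other bounds of the rule, since 137 of them had a leaf change over 1 at 0.5 h and 297 a root change over 1 at 12 h, so the sets are unlike in more than leaf at 12 h. The difference between these 2 sets was not tested.

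**Figure D4:**
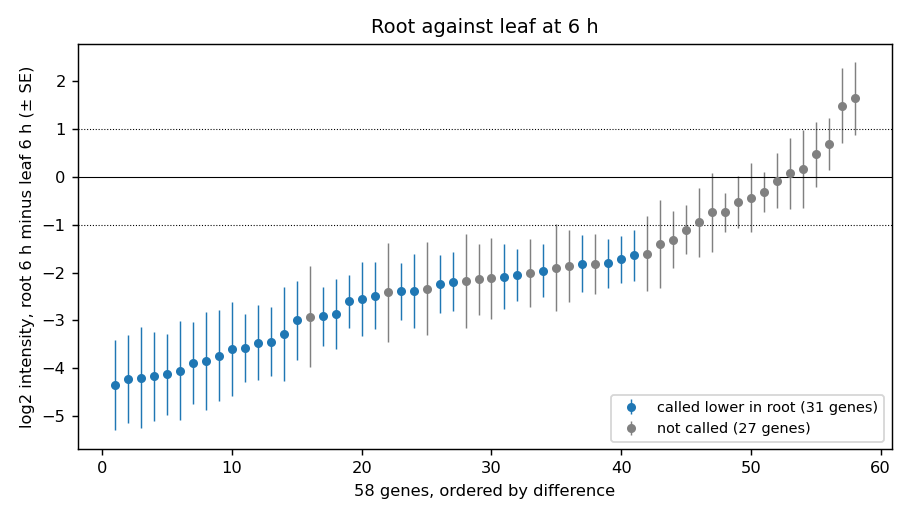
Log2 intensity of root at 6 h minus leaf at 6 h for the 58 genes in order of the difference, with the SE of the limma fit as bars and dotted lines at a change of 1. The 31 genes called lower in root are marked, and no gene is called higher.

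The called differences ran between -4.36 and -1.64. Os03g0714800 read 331 and 320.4 in root and 6914 and 6438 in leaf at 6 h, a log2 difference of -4.36 (SE 0.94, limma adjusted p 0.00685). AK064486 read 92 and 168 in root and 2648 and 2046 in leaf at 6 h. Both root values lie below the random feature (196 and 172), so its leaf level was at least 12.7-fold its root level (limma adjusted p 0.00675). At the other end, AK110727 read 1065 and 2256 in root and 692 and 358 in leaf, a difference of 1.64 that was not called (limma adjusted p 0.146). The tissues were far apart in both genes called lower, while in AK110727 the root replicates alone differed by more than 2-fold.

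The calls lay mostly among the Os genes. Of the 32 Os members 23 were called lower in root at 6 h (71.9%), where 8.85% of all Os genes were, and of the 26 AK members 8 were (30.8%), where 7.64% of all AK genes were. At 0 h, which the rule read, the Os members had a median difference of root minus leaf of -1.27 and the AK members one of -0.14. All 32 Os members had both root arrays below both leaf arrays at 6 h, and 19 of 26 AK members did, against 37.1% of all genes. The count of 31 was 10 and 6 without leaf 6 h replicate 1 or 2, 6 and 8 without root 6 h replicate 1 or 2, and 41 without leaf 0.5 h replicate 1 and root 0.5 h replicate 2 together. By limma's treat, which tests for a change larger than 1, 0 members were called lower. The shares of all genes under these alternatives are not given here, so the counts show only how far the 31 moved.

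Other gene sets moved across the leaf arrays beside the 58. The 53 genes with BAC identifiers, which are those of proteins of the mitochondrial genome, had a median of 1692 and 799 at 0 h, 1087 and 4600 after 0.5 h, 4276 and 7758 after 2 h, 6072 and 4864 after 6 h, and 4182 and 2309 after 12 h. The median differences of replicate 2 minus replicate 1 in this list were -1.06, 1.97, 1.01, -0.18 and -0.77 at 0, 0.5, 2, 6 and 12 h. For the 58 they were -0.74, 2.63, 0.89, -0.06 and -1.41, of the same sign at each time. At 6 h both were small, and there the list median of the 58 was higher on replicate 2, that of the BAC genes on replicate 1. Over all genes the median differences were 0.04, 0.45, 0.07, -0.09 and -0.06. At 12 h the BAC genes kept a median change of 1.20, whereas the 58 had been chosen for a change under 0.3. The 108 genes with CAA identifiers, proteins of the plastid genome, had median differences of -0.88, 0.38, 0.18, 0.02 and -0.25. The 642 genes with the leaf rise kept at 12 h had 0.42, 1.09, 0.09, 0.01 and 0.13, so that at 0.5 h replicate 2 was higher there also, but at 12 h the replicates lay close. What part these shared shifts have in the course of the 58 was not tested.

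**Figure D5:**
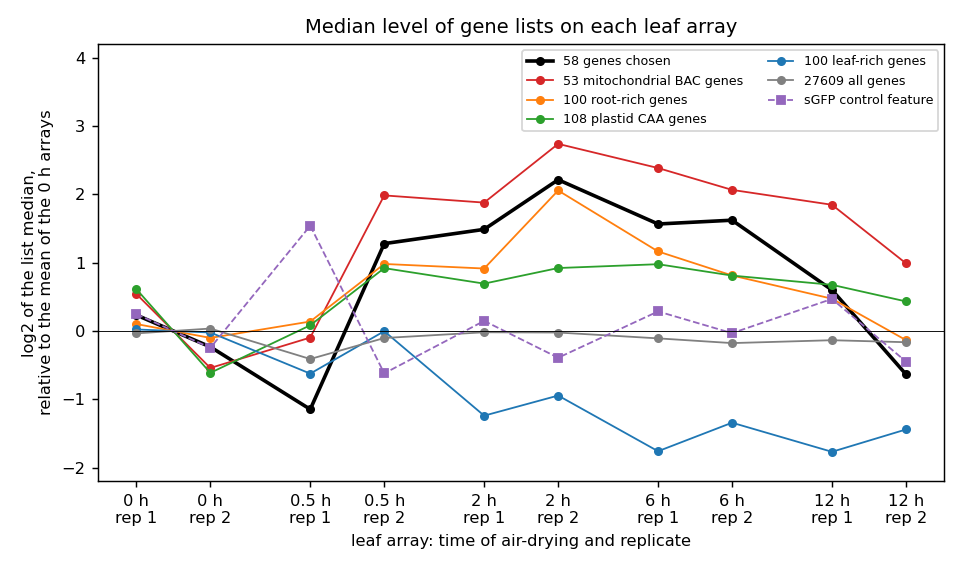
Log2 of the median of each gene list, and of the sGFP control feature, on the 10 leaf arrays relative to the mean of the 0 h arrays. The 58 genes and the mitochondrial BAC genes stand higher on 0.5 h replicate 2 and lower on 12 h replicate 2 than on the other replicate, and the sGFP feature is highest on 0.5 h replicate 1 (10354).

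Genes that mark root also differed between the leaf arrays. A list of the 100 genes with the largest difference of root over leaf at 0 h had a summed leaf intensity of 30208 and 32257 at 0 h, 42340.4 and 58708 after 0.5 h, 56872 and 117821 after 2 h, 76122 and 68131 after 6 h, and 75343 and 54919.5 after 12 h. The list was chosen partly by a low leaf level at 0 h, so part of any rise from 0 h can come with the choice. All genes were not chosen in this way. At 2 h, 49 of the 100 had a leaf change over 1 (3845 of all 27609), and 24 and 4 of the 100 read under 200, against 47 and 53 at 0 h. Dim genes moved in general on these arrays: of all genes, 1925 and 723 read under 200 at 2 h, against 2762 and 2939 at 0 h. The random feature was lowest of all on leaf 2 h replicate 2 (115), and 16.6% of all genes read over 2-fold higher there than on replicate 1. The sum was thus highest on 2 h replicate 2, which was also the highest leaf array for 48 of the 58 genes. The smallest log2 difference of root over leaf at 0 h in this list was 4.39, and the largest among the 58 was 2.41. None of the 58 could thus have been among these 100 genes, and nothing is read from their absence. At 0 h, which the rule read, 44 of the 58 had a higher mean intensity in leaf than in root, which is a description. For the 100 genes that at 0 h most exceeded root in leaf, the median over the leaf arrays was 6999.9 and 8585 at 2 h, against 16788 and 16278 at 0 h. The part of either list, or of the raised low end on 2 h replicate 2, in the leaf rise of the 58 was not tested.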

How the data were processed

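Gene expression was measured on single-colour 3′-tiling arrays in leaf and root, 10 groups of 2. The authors summarised the probes by RMA, and the deposited values are an intensity for each gene on a linear scale (background step not given in the sources used here). The 6 control features were left out of tests. Log2 intensities were fitted with no further normalization in limma 3.58.1 (R 4.3.3, lmFit and eBayes, 10 groups, 10 residual degrees of freedom), with Benjamini-Hochberg adjustment over 27609 genes and calls where the log2 change was past 1 with an adjusted p under 0.05, and the procedure was tested on simulated data. The members and lists were chosen with earlier results of these data known.

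Leaf changes and the root change at 12 h chose the members and were not tested. Where the dimmer group lay below the random feature on both arrays, a bound replaced the fold. The genes named were, for members with no name, the 2 with the largest leaf change at 2 h and up to 2 called in each direction, with exceptions stated. Lists by function could not be applied, since no identifier had a name. Alternatives were quantile normalization, median centring, floors of 100 and 400 in the rule, other limits of the rule, a floor of 200 in the fit, the dimmest 25% of genes left out, only root arrays or the groups compared, a trend and robust prior, treat, array weights, the replicate block, and each array left out. The number of arrays limits precision. Groups had 2 separate plant samples. The p-values rest on the spread between replicates pooled over all 10 groups of leaf and root, not on that of the 2 groups compared alone.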

Additional observations from a re-analysis of the deposited data

Results flagged for a closer look

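Control features that stand for no rice gene read more than 2 times the higher 0 h array of the same tissue on 3 arrays. On leaf 0.5 h replicate 1, the Bar feature read 3464 (higher 0 h array 1175), gus 1318 (508), Hygromycin 4989 (1702), Knamycin 3189 (1373) and sGFP 10354 (4225). On root 0.5 h replicate 2, Bar read 1783 (585), gus 1024 (413), Knamycin 1822 (822) and the feature of random sequences 340.2 (161). On root 12 h replicate 1, Bar read 1169.8 (585), Hygromycin 1802 (876) and Knamycin 1656 (822). The first of these arrays is the lowest leaf array for 41 of the 58 genes, and its part in the course of the 58 was not tested.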

How the results depend on the processing

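The number of genes that the rule found, 58 as reported, was 19 after quantile normalization, 32 with arrays centred on their medians, 220.0 with no minimum at 2 h, 135 and 21 with the 2 h limit at 1 and 2, and 6 to 429 with single arrays left out. Of the members, the count called lower in root than leaf at 6 h, 31 as reported, was 18 of 37 tested with the dimmest 25% of genes left out, 0 by treat, 33 with the replicate block and 6 to 40 with single arrays left out, and the count higher, 0 as reported, was 1 with only the groups compared, 2 with array weights and 0 to 1 with single arrays left out. For root at 2 h against 0 h, the 1 called higher was 2 under quantile normalization, centring, only root arrays, the replicate block, array weights and without both raised 0.5 h arrays, 0 without the dimmest genes and by treat, and 0 to 2 with single arrays left out. For root at 2 h against 0.5 h, the 1 called higher was 0 under quantile normalization, centring, without the dimmest genes, with only the groups compared, the trend and robust prior, treat and array weights, 2 with the replicate block, 3 with only root arrays, and 0 to 3 with single arrays left out. For root at 6 h against 0 h, the 0 called higher was 1 under quantile normalization, centring and only root arrays, 4 with only the groups compared, 2 with array weights and without both raised arrays, and 0 to 2 with single arrays left out. For root at 0.5 h the 0 called lower was 0 to 2 with single arrays left out, and for root at 6 h against 2 h the 0 called lower was 1 with array weights. Of 389 counts recomputed under an alternative, 316 stayed within 1.5 times the count reported, 38 fell below that range, 35 lay above it and 0 reversed a direction, and the causes were not tested. The shares of all genes called under each alternative are not given here. Deviations of same-numbered arrays correlated at -0.16 to 0.72 over 45 pairs of groups (median 0.31, 38 over 0.1), so most groups shared a deviation by number but not all did, and no label gives the number a meaning, so the block was kept as an alternative. With 2 arrays in each group and raised control features on leaf 0.5 h replicate 1, levels near the random feature have no firm order.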
